A study of Carica papaya with 55 samples.

Results

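Stamens of papaya (Carica papaya) 'AU9' male flowers were compared across meiosis, in buds of 7 to 12 mm (stage S4, labelled post-meiotic) against buds of 4.5 to 6.5 mm (stage S3, labelled pre-meiotic). Each stage had 3 libraries, so the comparison used 6 of the 55 libraries of the series. All counted features entered it. Of these, 97 are X-located and 96 lie in the region of the Y that only males carry, with names that end in MSY. The plants carried no treatment or transgene in the labels, and bud length stands for age. Male pistillodes (the aborted pistils of the same sex of flower, 3 libraries at S4 and 2 at S3) and pistils of 'AU9' female flowers (3 at S4 and 3 at S3) served to set the stamen change beside that of other floral organs. Stamens of S1 (1 to 1.5 mm), S2 (2 to 4.5 mm) and S5 (15 to 20 mm) buds and pollen of S5 flowers, with 3 libraries each, place the levels in a series. Nothing in the labels ties replicates to separate plants, and the p-values then measure only how these samples spread, which may be technical.

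Inside a stamen, pollen mother cells pass through meiosis and give microspores, which are fed by the surrounding tapetum and mature into pollen. Papaya males are XY, and the male-specific region of the Y does not recombine with the X, so that many genes there have an X and a Y copy that have diverged to different degrees. After meiosis each microspore carries either the X or the Y, while tapetum and anther wall cells carry both.

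The tables hold features of the sex-linked regions alone, under the names used here, and the files give them no function. No defining marker of tapetum, microspores or anther wall could therefore be looked up, and the tissue label was not checked against such markers. A dissected stamen is a mixture of cell types, and in such samples fewer cells of a type and less RNA per cell cannot be told apart. Totals over these features were 62186 to 91755 counts in S4 stamens and 64518 to 69620 in S3 stamens. They are not the depth of the libraries. Every level below is in CPM, a read count scaled by that total multiplied by a TMM (trimmed mean of M-values) factor. Both the total and the factor rest on the sex-linked features of the library rather than on all genes. The factors were 0.8232, 0.9505 and 0.9078 in S4 stamens, against 1.087, 1.012 and 1.038 in S3 stamens. No 2 libraries of a stage were as alike as repeat counts of the same library would be. Of the 193 features, 31 had no counts in the 6 libraries and 139 had enough counts over the series to be tested.

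Many sex-linked transcripts of stamens differed in level between S4 and S3, in both directions and on both chromosomes. With edgeR's quasi-likelihood test and Benjamini-Hochberg adjustment over the 139 features, 70 features (50.4%) differed at an adjusted p under 0.05. Of these 33 (23.7%) were higher and 37 (26.6%) lower in S4, and 69 did not pass. The 3 libraries of S4 did not overlap the 3 of S3 in 68 of the 70, among 91 of the 139 tested features (65.5%) with no overlap. The change was above 1 on the log2 scale in 17 features that were higher and in 22 that were lower. Over all tested features the median log2 change was -0.06. The balance of higher and lower calls depends on scaling and on which libraries share the estimate of spread. It was 44 higher and 31 lower when the 6 libraries were fitted alone, 42 and 30 with the 15 stamen libraries, 19 and 51 when the table totals were used for scaling, and 26 and 43 among features with at least 10 counts in 3 libraries. Of the features that passed in the fit of the 6 libraries and not in the main test, 13 in all, 11 were higher and 2 lower. Among them were CpXY50_X (log2 change 0.79, adjusted p = 0.0012 in the 6 libraries and 0.284 in the main test) and CpXY3_MSY (0.68, adjusted p = 0.000378 and 0.245, edgeR). The median log2 change was 0.05 with the 6 libraries, 0.06 with the 15 stamen libraries and -0.30 with table totals. No feature called in the main test changed sign under these alternatives. The plot of change against level shows the whole set.

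**Figure D1:**
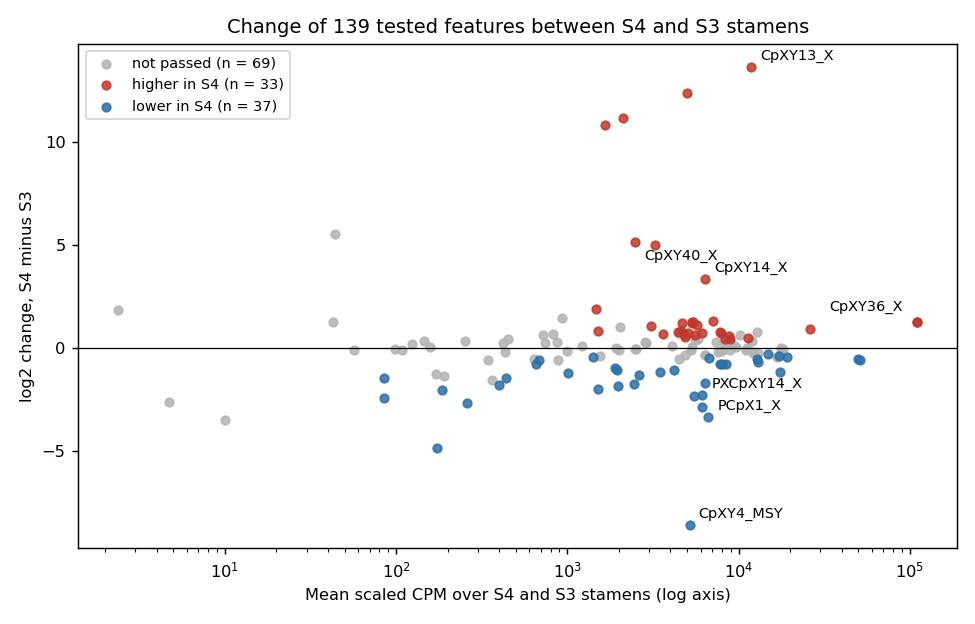
Each point is 1 of the 139 tested features, with its mean level over the S4 and S3 stamen libraries (scaled CPM, log axis) and its log2 change, S4 minus S3. The 33 features higher in S4 and the 37 lower in S4 spread over the range of levels, and features with no counts in S3 stand at the top, where the fitted change has no fixed size.

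The strongest increases were in features with no counts in S3 stamens. Both copies of CpXY13 were abundant in every S4 library and had no count in any S3 library. CpXY13_X (X, 3895165 to 3898270, 3 exons) had 2452, 1366 and 1099 counts in S4 stamens, against 0, 0 and 0 in S3 stamens. Its Y copy CpXY13_MSY (Y, 907975 to 908290, 1 exon) had 865, 707 and 464 counts in S4 stamens, against 0, 0 and 0 in S3 stamens. All S4 libraries were far above all S3 libraries for both copies. Set against the 3 counts over the group that a count of 0 allows, CpXY13_X was at least 1666-fold and CpXY13_MSY at least 690-fold higher in S4 (adjusted p = 1.64e-09 and 1.57e-09, edgeR). These floors cover counting error only. The mean level in S4 was 23779 ± 8378 CPM for CpXY13_X and 10023 ± 2931 CPM for CpXY13_MSY (SD, n = 3). Per exon kilobase the S4 levels were nearer to each other, at 41069 CPM for the X copy and 31718 CPM for the Y copy.

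The other called features with no counts in S3 were Y-located. CpXY10_MSY (Y, 1821084 to 1821351, 1 exon) had 352, 191 and 338 counts in S4 stamens, against 0, 0 and 0 in S3 stamens. It was at least 299-fold higher in S4 (adjusted p = 1.56e-07, edgeR), and its X partner CpXY10_X had no counts in S4 and 4 in S3. PYCpXY7_MSY (Y, 3437881 to 3438796, 5 exons) had 245, 305 and 109 counts in S4 stamens, against 0, 0 and 0 in S3 stamens. It was at least 223-fold higher in S4 (adjusted p = 3.29e-07, edgeR). Its X copy had counts at both stages. PYCpXY7_X had 859, 577 and 718 counts in S4 stamens and 481, 526 and 468 in S3 stamens, a log2 change of 0.56 (SE 0.15, adjusted p = 0.00202, edgeR) that did not pass with table totals. The Y copies of these genes thus appeared in S4 beside an X copy that had no counts in S3 (CpXY13), almost none at either stage (CpXY10) or many at both (PYCpXY7). CpXY4_X, with 5, 10 and 2 counts in S4 and 0, 0 and 0 in S3, did not pass (adjusted p = 0.0763, edgeR).

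**Figure D2:**
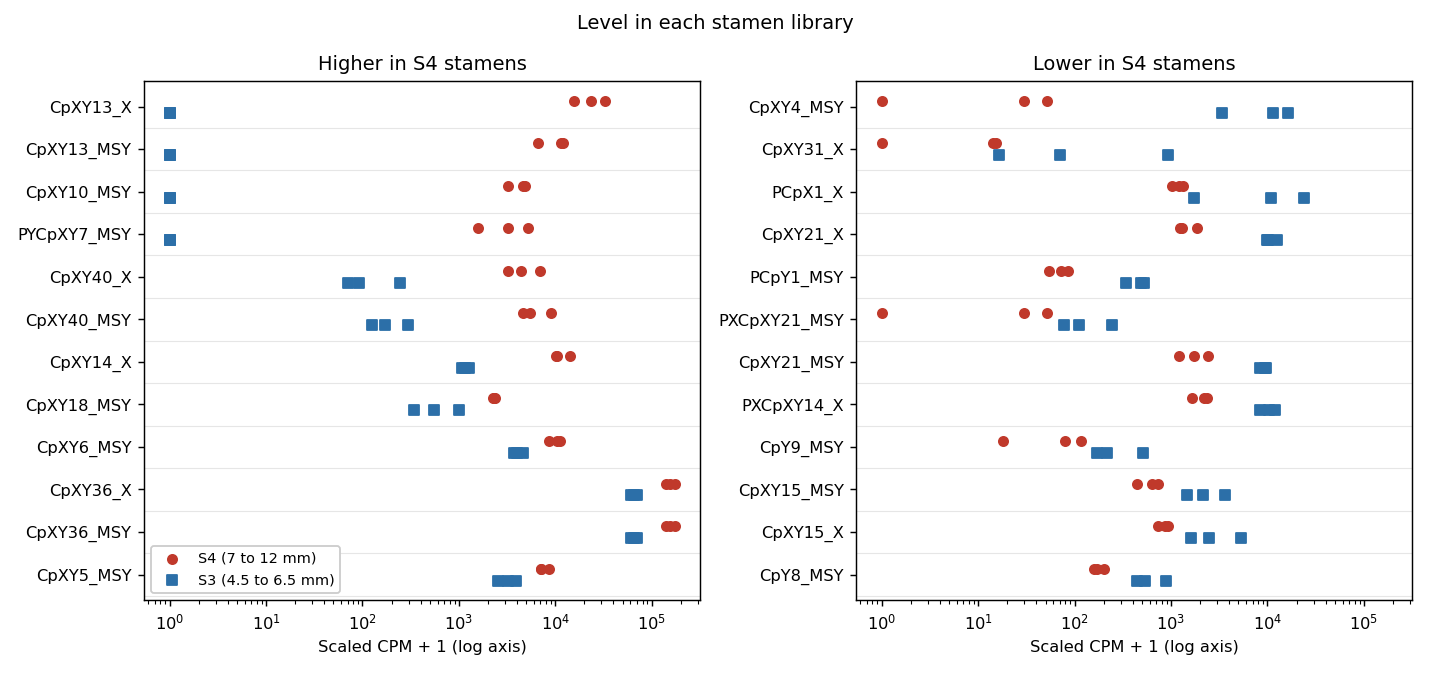
Level of the 12 named features in each direction in every stamen library, as scaled CPM plus 1 on a log axis, with S4 libraries as red circles above and S3 libraries as blue squares below. Points at 1 are libraries with 0 counts. The 24 features were chosen by a rule that required no overlap of the S4 and S3 libraries, and CpXY31_X comes close to overlap.

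A second set of features was present in S3 and rose in S4. CpXY40_X (X, 5084491 to 5086415) had 332, 191 and 483 counts in S4 stamens, against 17, 6 and 5 in S3 stamens. Its mean level was 4851 ± 1888 CPM in S4 and 134 ± 93.9 CPM in S3 (SD, n = 3 each), a log2 change of 5.15 (SE 0.83, adjusted p = 1.55e-06, edgeR). CpXY40_MSY, whose reads are largely shared with the X copy, changed by 4.99 (SE 0.77, adjusted p = 7.56e-07, edgeR). The lowest S4 library lay far above the highest S3 library in both copies.

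CpXY14_X (X, 3944355 to 3951169, 7 exons) gave the change with the smallest adjusted p. It had 1074, 618 and 715 counts in S4 stamens, against 89, 75 and 77 in S3 stamens. The mean level was 11643 ± 2236 CPM in S4 and 1161 ± 101 CPM in S3 (SD, n = 3 each). The spread within each stage was small beside a log2 change of 3.32 (SE 0.20, adjusted p = 6.14e-18, edgeR). The Y copy CpXY14_MSY rose less, with 361, 204 and 294 counts in S4 stamens and 153, 114 and 152 in S3 stamens, a log2 change of 1.05 (SE 0.35, adjusted p = 0.0126, edgeR). That call was lost with table totals.

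Y copies of 3 further pairs rose by smaller amounts. CpXY18_MSY had 179, 137 and 158 counts in S4 stamens, against 24, 66 and 40 in S3 stamens (log2 change 1.87, SE 0.60, adjusted p = 0.00951, edgeR). CpXY6_MSY (Y, 4435864 to 4504632, 10 exons) had 792, 510 and 777 counts in S4 stamens, against 263, 301 and 291 in S3 stamens (log2 change 1.29, SE 0.23, adjusted p = 7.55e-06, edgeR). CpXY5_MSY had 653, 423 and 491 counts in S4 stamens, against 275, 166 and 231 in S3 stamens (log2 change 1.24, SE 0.29, adjusted p = 0.00047, edgeR). In all 3 the lowest S4 library lay above the highest S3 library, which the rule that named them required. The X copy of CpXY18 had a change of similar size, 1.45, that did not pass (adjusted p = 0.0677, edgeR). The X copy of CpXY5 was also called higher, with a log2 change of 0.73 (adjusted p = 0.000366, edgeR), while that of CpXY6 is given below.

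The most abundant sex-linked transcript of stamens, CpXY36, also rose. CpXY36_X (X, 4948529 to 4951174, 6 exons) had 13143, 9201 and 9773 counts in S4 stamens, against 4560, 4570 and 4349 in S3 stamens. CpXY36_MSY (Y, 7637840 to 7640485, 6 exons) had 13048, 9159 and 9741 counts in S4 stamens, against 4539, 4549 and 4347 in S3 stamens. The counts of the copies were nearly equal in every library, since reads that map to several places were counted at each of them. The log2 change was 1.27 (SE 0.14, adjusted p = 1.25e-09, edgeR) for the X copy and 1.26 (SE 0.15, adjusted p = 6.52e-09, edgeR) for the Y copy. Together the copies took 28.5, 29.5 and 25.4% of the counts in S4 stamens, against 14.1, 14.1 and 12.5% in S3 stamens, or 27.8 ± 2.16% and 13.6 ± 0.932% (SD, n = 3 each). The stages did not overlap, and the two-sided exact permutation test gave p = 0.1, the smallest that 3 libraries against 3 allow.

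Per exon kilobase, CpXY36 also had the highest mean level over the 6 libraries. Its X copy was at 134542 CPM in S4 stamens and 55880.4 CPM in S3 stamens, where CpXY16_MSY was higher. The next features by that scale did not pass the test. CpXY16_MSY was at 76449 CPM per exon kilobase in S4 and 87812 in S3, CpXY48_X at 49696 and 52758, and CpXY16_X at 46551 and 55584. The log2 changes of these 3 were -0.20, -0.09 and -0.26 (adjusted p = 0.284, 0.802 and 0.245, edgeR), and their libraries overlapped between stages. With table totals as the scale the CpXY16 copies were called lower in S4, at log2 changes of -0.44 and -0.50 (adjusted p = 0.0133 and 0.0166, edgeR). Their change relative to the median of all features was smaller, since that median was -0.30 on the same scale.

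The largest decrease was that of a Y copy that was abundant in S3. CpXY4_MSY (Y, 3699169 to 3729741, 2 exons) had 0, 3 and 2 counts in S4 stamens, against 800, 221 and 1173 in S3 stamens. The ratio of scaled counts, S4 over S3, was 0.00232 (95% exact binomial interval 0.000751 to 0.00541, counting error only), and the fitted log2 change was -8.61 (SE 1.19, adjusted p = 7.56e-07, edgeR). The S3 libraries themselves differed several-fold, at 10339 ± 6493 CPM (SD, n = 3), yet the lowest of them held far more counts than the 3 S4 libraries together. PYCpXY5_MSY lies within the span of CpXY4_MSY on the other strand, and no exons of the pair overlap.

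CpXY21 and PXCpXY14 fell in both copies with little spread among libraries. CpXY21_X (X, 4319560 to 4334142, 13 exons) had 141, 73 and 91 counts in S4 stamens, against 714, 819 and 706 in S3 stamens, a log2 change of -2.88 (SE 0.33, adjusted p = 1.67e-09, edgeR). CpXY21_MSY had 182, 71 and 122 counts in S4 stamens, against 665, 628 and 603 in S3 stamens, a log2 change of -2.35 (SE 0.38, adjusted p = 1.68e-06, edgeR). For either copy the highest S4 library had far fewer counts than the lowest S3 library.

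PXCpXY14_X (X, 2967667 to 2979678, 14 exons) had 178, 98 and 152 counts in S4 stamens, against 584, 779 and 757 in S3 stamens. It fell to 2065 ± 363 CPM in S4, against 10243 ± 1821 CPM in S3 (SD, n = 3 each), a log2 change of -2.31 (SE 0.17, adjusted p = 4.24e-15, edgeR). Its Y copy PXCpXY14_MSY had 228, 178 and 208 counts in S4 stamens and 604, 676 and 732 in S3 stamens, a log2 change of -1.69 (SE 0.30, adjusted p = 1.05e-05, edgeR). In CPM the 3 S4 libraries of this copy were almost identical, at 3004 ± 19.9 CPM.

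Both copies of CpXY15 fell by similar amounts. CpXY15_MSY had 48, 26 and 51 counts in S4 stamens, against 103, 234 and 156 in S3 stamens (log2 change -1.98, SE 0.29, adjusted p = 2.81e-07, edgeR). CpXY15_X had 71, 43 and 60 counts in S4 stamens, against 113, 344 and 177 in S3 stamens (log2 change -1.87, SE 0.34, adjusted p = 1.05e-05, edgeR). S3 replicate 1 was the lowest of its stage in both copies and lay above every S4 library, as the naming rule required.

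PCpX1_X, an X feature with no Y partner (X, 1960931 to 1962115, 1 exon), had 101, 60 and 84 counts in S4 stamens, against 769, 113 and 1708 in S3 stamens. The S4 libraries were close to each other while the S3 libraries ranged over more than 10-fold. The log2 change was -3.35 (SE 0.44, adjusted p = 2.82e-08, edgeR), and with the 6 libraries fitted alone it did not pass (-3.31, adjusted p = 0.0515).

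Y features without an X partner were also among the decreases, at low counts. PCpY1_MSY had 4, 5 and 5 counts in S4 stamens, against 24, 32 and 38 in S3 stamens (log2 change -2.68, SE 0.64, adjusted p = 0.000575, edgeR). CpY8_MSY had 12, 10 and 14 counts in S4 stamens, against 31, 35 and 64 in S3 stamens (log2 change -1.81, SE 0.42, adjusted p = 0.000721, edgeR). CpY9_MSY had 6, 1 and 8 counts in S4 stamens, against 15, 11 and 37 in S3 stamens (log2 change -2.03, SE 0.65, adjusted p = 0.0117, edgeR). Both CpY8_MSY and CpY9_MSY lie within the span of PXCpXY6_MSY on the other strand, and the counts carry no strand. PXCpXY6_MSY was called higher in S4, with a log2 change of 1.11. Without S3 replicate 3 the change of CpY9_MSY was -1.32 (adjusted p = 0.127), and without S4 replicate 2 it was -1.61 (adjusted p = 0.0626).

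The call of CpXY31_X rests on S3 replicate 1. It had 1, 0 and 1 counts in S4 stamens, against 65, 1 and 5 in S3 stamens, a log2 change of -4.87 (SE 1.01, adjusted p = 0.000153, edgeR). Without that library the change was -1.88 and did not pass (adjusted p = 0.109). PXCpXY21_MSY, with 0, 3 and 2 counts in S4 stamens and 17, 5 and 8 in S3 stamens, changed by -2.44 (SE 0.85, adjusted p = 0.0182, edgeR). It did not pass without S3 replicate 1 (-1.74, adjusted p = 0.13), without S4 replicate 1 (-1.83, adjusted p = 0.0967) or with DESeq2 (adjusted p = 0.0501). The same S3 library held 18 of the 21 counts of CpXY39_X and 17 of the 20 of CpXY39_MSY in S3. Both were at 0 in the 3 S4 libraries and were too low to be tested.

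Among the decreases of a smaller size, CpXY11 was abundant at both stages. CpXY11_X (X, 3496804 to 3499929, 1 exon) had 874, 563 and 785 counts in S4 stamens, against 1465, 1690 and 1889 in S3 stamens (log2 change -1.17, SE 0.19, adjusted p = 2.52e-06, edgeR). CpXY11_MSY had 826, 523 and 697 counts in S4 stamens, against 1032, 1163 and 1139 in S3 stamens (log2 change -0.70, SE 0.25, adjusted p = 0.0182, edgeR), a call that was lost without S4 replicate 2, S3 replicate 2 or S3 replicate 3. The libraries of a stage were close to each other and the stages did not overlap in either copy.

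Both copies of CpXY17, a partly shared pair, fell in stamens. CpXY17_MSY had 76, 61 and 89 counts in S4 stamens, against 241, 263 and 278 in S3 stamens (log2 change -1.77, SE 0.22, adjusted p = 7.82e-09, edgeR), and CpXY17_X changed by -1.33. PXYCpXY1_X, the X copy of a separate pair, had 157, 136 and 141 counts in S4 stamens, against 333, 327 and 339 in S3 stamens (log2 change -1.17, SE 0.12, adjusted p = 6.62e-11, edgeR). Its 3 libraries per stage were nearly equal. CpXY41_MSY, a shared copy, was among the increases, with 2705, 1546 and 2821 counts in S4 stamens, against 1294, 1061 and 1384 in S3 stamens (log2 change 0.93, SE 0.37, adjusted p = 0.0357, edgeR), and its call was lost with table totals, with a filter of at least 10 counts in 3 libraries and without S4 replicate 1, S4 replicate 3 or S3 replicate 2.

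Counted as genes, 21 had at least 1 copy that was higher in S4 and 26 at least 1 that was lower. How far the copies can be told apart depends on the reads. Females carry no Y, so counts at a Y copy in female libraries come from elsewhere. Pairs of copies were classed by the share of the female counts of the pair that fell on the Y copy: 21 pairs were separate (under 5%), 26 shared (over 25%), 10 partly shared, and 12 had under 100 female counts and were not classed. In shared pairs the X and Y values largely repeat each other. Both copies were tested in 26 shared pairs, of which 10 had both called in the same direction, 6 had only 1 called and 10 neither. The median distance between the log2 changes of the copies was 0.06. In 19 separate pairs it was 0.48, with 7 pairs called in the same direction in both copies, 3 with only 1 called, 7 with neither and 2 with opposite calls.

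The 2 pairs with opposite calls were CpXY6 and PYCpXY5. CpXY6_MSY rose as given above, while CpXY6_X had 389, 337 and 422 counts in S4 stamens, against 470, 601 and 550 in S3 stamens (log2 change -0.48, SE 0.17, adjusted p = 0.0183, edgeR). The call of CpXY6_X was lost without S4 replicate 1, S3 replicate 2 or S3 replicate 3, and when the 15 stamen libraries alone were fitted. PYCpXY5_MSY had 22, 17 and 8 counts in S4 stamens, against 53, 37 and 44 in S3 stamens (log2 change -1.47, SE 0.43, adjusted p = 0.00565, edgeR). PYCpXY5_X had 898, 483 and 740 counts in S4 stamens, against 637, 458 and 479 in S3 stamens (log2 change 0.43, SE 0.14, adjusted p = 0.011, edgeR). The libraries of PYCpXY5_X overlapped between stages, and its call was lost with table totals, with a filter of at least 10 counts in 3 libraries and without S4 replicate 1.

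Within a library the number of Y counts per X count does not depend on scaling. It was tested in the 16 separate pairs with enough counts. With limma and Benjamini-Hochberg adjustment over the 16, 8 pairs (50%) differed between stages, 6 with a higher and 2 with a lower Y to X ratio in S4. CpXY6 turned round: the Y copy had 2.04, 1.51 and 1.84 counts per X count in S4 stamens, against 0.560, 0.501 and 0.529 in S3 stamens. The change was 1.75 on the log2 scale (SE 0.15, adjusted p = 1.96e-10, limma). CpXY14 turned the other way, with 0.336, 0.330 and 0.411 Y counts per X count in S4 stamens, against 1.72, 1.52 and 1.97 in S3 stamens. The change was -2.27 (SE 0.23, adjusted p = 7.26e-09, limma). In both pairs the stages lay on opposite sides of equal counts, and the exons of the copies have nearly the same length.

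PYCpXY7 had 0.285, 0.529 and 0.152 Y counts per X count in S4 stamens, against 0, 0 and 0 in S3 stamens, where 3 counts over the group would give 0.00203. The Y to X ratio was at least 150-fold higher in S4 (adjusted p = 2.49e-07, limma). PYCpXY5 had 0.0245, 0.0352 and 0.0108 Y counts per X count in S4 stamens, against 0.0832, 0.0808 and 0.0919 in S3 stamens (log2 change -1.98, SE 0.39, adjusted p = 0.000127, limma). The other called ratios moved by less: PXCpXY14 by 0.62 (adjusted p = 0.000442), CpXY5 by 0.53 (adjusted p = 0.0106), CpXY11 by 0.47 (adjusted p = 0.0029) and CpXY3 by 0.41 (adjusted p = 0.0191), all by limma and all with a higher Y to X ratio in S4. The call of CpXY3 was lost without S3 replicate 1 (0.34, adjusted p = 0.0932), without S3 replicate 2 (0.38, adjusted p = 0.0603) and without S4 replicate 3 (0.35, adjusted p = 0.0905). That of CpXY5 was lost without S3 replicate 2 (0.45, adjusted p = 0.0603). CpXY13 has no ratio in S3, and in S4 its Y copy had 0.353, 0.518 and 0.422 counts per X count, or 0.759 per exon base over the 3 libraries.

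**Figure D3:**
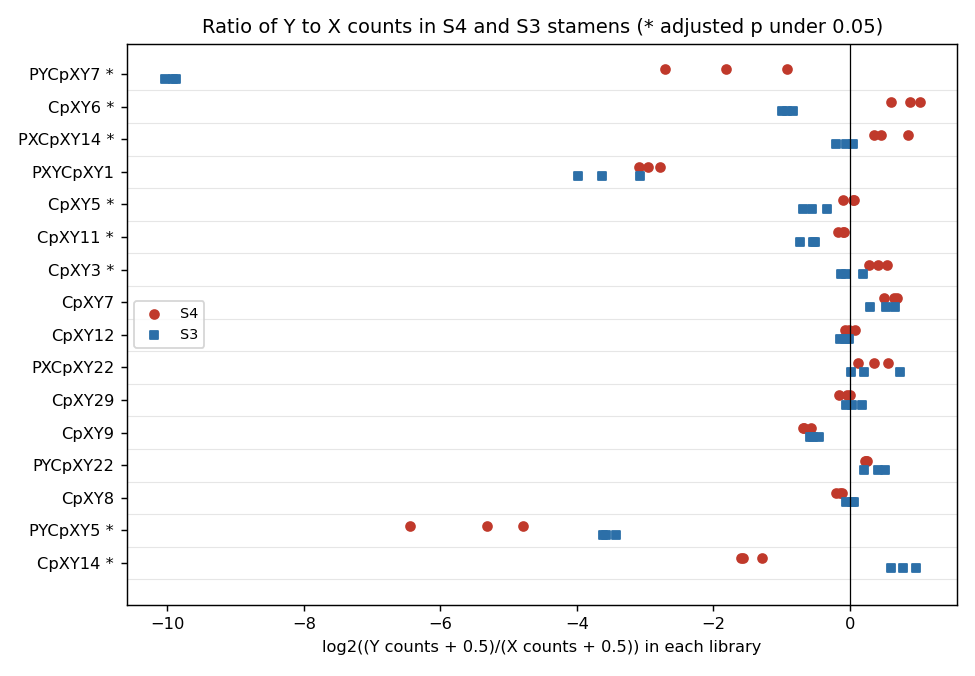
Ratio of Y to X counts in each S4 (red circle) and S3 (blue square) stamen library for the 16 pairs tested, on a log2 scale with 0.5 added to each count, ordered by the change from the highest at the top. CpXY6 and CpXY14 lie on opposite sides of 0 at the 2 stages, and PYCpXY7 in S3 is set by the added 0.5, since its Y copy had no counts there.

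The calls were spread over both chromosomes. Of 67 tested X-located features 15 were higher and 20 lower (median log2 change -0.08). Of 72 tested Y-located features 18 were higher and 17 lower (median -0.05). Over all 139 tested features 33 (23.7%) were higher and 37 (26.6%) lower (median -0.06). Copies of shared pairs count many of the same reads on both chromosomes. Y-located features took 50.1, 50.8 and 51.2% of the counts in S4 stamens, against 50.0, 50.3 and 49.4% in S3 stamens. The libraries overlapped, the difference was 0.82 percentage points, and the two-sided exact permutation test gave p = 0.2, where 0.1 is the smallest it can give. Among the copies of separate pairs alone the difference was -0.03 percentage points.

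Of 33 tested features whose names start with P, 7 were higher and 8 lower, with a median of -0.10, against 33 higher (23.7%) and 37 lower (26.6%) of the 139 tested features. Of 5 tested X features without a Y partner, 2 were lower and none higher, namely PCpX1_X and CpX1, of 27 such features in the tables. Of 13 tested Y features without an X partner, 3 were lower (PCpY1_MSY, CpY8_MSY and CpY9_MSY) and 1, CpY17_MSY, was higher, again of 27. CpX1 had 35, 45 and 42 counts in S4 stamens, against 106, 97 and 89 in S3 stamens (log2 change -1.21, SE 0.34, adjusted p = 0.00288, edgeR).

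No cell type markers being available, features were grouped by their level in libraries outside the comparison. The pollen-rich list holds 12 features whose mean level in pollen was at least 4 times that in S1 and in S2 stamens. In S4 against S3 stamens 6 of the 12 were higher (both copies of CpXY40 and CpXY42, CpXY18_MSY and CpY17_MSY), 2 were lower (CpXY4_MSY and CpXY21_MSY) and 4 did not pass, beside 23.7% higher and 26.6% lower of the 139 tested features. CpXY40 and CpXY42 are shared pairs, whose copies repeat much of each other's reads. The median log2 change of the 12 was 1.11. With table totals the calls of both CpXY42 copies and of CpY17_MSY were lost, and the call of CpY17_MSY was also lost without S4 replicate 2 or 3, without S3 replicate 1 or 3, and in the 15 stamen libraries alone. Their summed share of counts did not separate the stages, at 2.63 to 3.25% in S4 stamens and 2.44 to 3.65% in S3 stamens, and it was 5.01 to 20.7% in S5 stamens and 42.1 to 47.7% in pollen. CpY17_MSY, which dominated pollen at 402315 CPM, was at 1920.1 CPM in S4 stamens and 1090.3 CPM in S3 stamens (log2 change 0.81, adjusted p = 0.039, edgeR). Their part in the stamen changes was not tested. Of 4 pistillode-rich features, with a level in S1 and S2 pistillodes at least 2 times that in the stamens of those stages, 1 was higher (CpY17_MSY, which is also on the pollen-rich list), 1 lower (PYCpXY30_X) and 2 did not pass. PYCpXY30_X had 9 counts over the S4 stamens and 26 over the S3 stamens. Its call was lost with DESeq2, in the 15 stamen libraries alone, and without replicate 1 or 2 of either stage. The 4 features took 0.211 to 0.339% of counts in S4 stamens and 0.246 to 0.307% in S3 stamens, and the ranges of the stages overlapped.

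Set in the series from S1 to S5, the named features followed several courses, described here without a test. CpXY36_X was higher at each later stage, at 25335, 42669, 65045, 156607 and 272675 CPM from S1 to S5, and was at 5898 CPM in pollen. CpXY13_X was at 0 in the libraries of S1, S2 and S3, reached 23779 CPM in S4 and 43086 CPM in S5, and was at 0 in pollen. CpXY10_MSY followed a similar course with 12594 ± 12942 CPM in S5 (SD, n = 3), so that the S5 libraries differed widely.

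Other increases had their highest stamen level in S4. PYCpXY7_MSY had 1, 2, 0, 659 and 0 counts over the 3 libraries of each stage from S1 to S5 and 0 in pollen, so nearly all of its counts lay in S4. CpXY40_X was at 933, 746, 134, 4851 and 1513 CPM from S1 to S5 and 5959.6 CPM in pollen, so that S3 was its low point and S4 its high point among stamens. CpXY6_MSY was at 6364, 5952, 4128, 10085 and 2609 CPM from S1 to S5, also with its peak in S4. CpXY14_X was at 3621, 3305, 1161, 11643 and 10153 CPM from S1 to S5, so its level in S5 was close to that in S4.

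Among the decreases, some were higher in S3 than at the stages beside it. CpXY4_MSY was at 0, 32.1, 10339, 26.5 and 15019.7 CPM from S1 to S5 and at 27647 CPM in pollen, with an SD of 14341 CPM among the S5 libraries. CpXY21_X was at 2417, 3775, 10828, 1469 and 10247 CPM from S1 to S5 and 11921 CPM in pollen. PCpX1_X peaked in S3 at 12109.6 ± 11006 CPM and was between 1186 and 1359.9 CPM at the other stamen stages.

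Other decreases were also low in S5 stamens. PXCpXY14_X was at 9493, 7917, 10243, 2065 and 2159.9 CPM from S1 to S5, so the drop fell between S3 and S4, and it was at 8146 CPM in pollen. CpXY15_MSY was at 9033, 7624, 2404, 602 and 269.9 CPM, and PCpY1_MSY at 2462, 1616, 453, 69.7 and 27.8 CPM, so both were lower in S3 than in S1 and S2. In pollen CpXY15_MSY was at 58.4 CPM and PCpY1_MSY at 985 CPM.

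**Figure D4:**
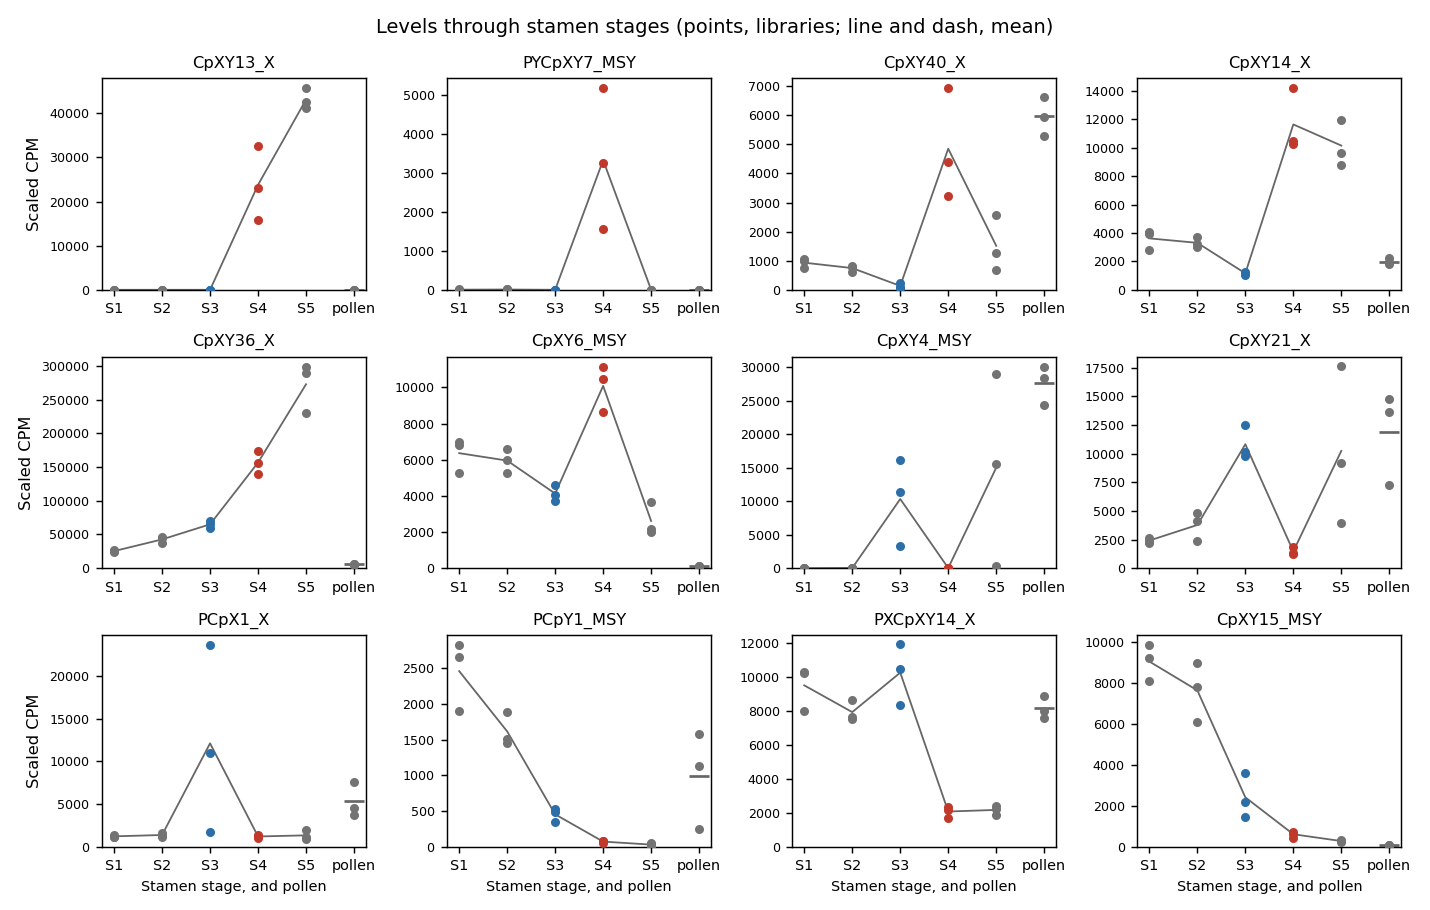
Level (scaled CPM, linear axes from 0, each panel on its own scale) of 12 named features in stamens of S1 to S5 and in pollen, with 3 libraries per group as points (S4 red, S3 blue, others grey), the stamen means joined by a line and the pollen mean as a dash. CpXY36_X climbs at every stage, PYCpXY7_MSY has nearly all of its counts in S4, CpXY4_MSY and CpXY21_X are high in S3 and low in S4, and PXCpXY14_X falls between S3 and S4.

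The same bud sizes were compared in the other floral organs. In pistillodes 8 of 139 features (5.76%) differed between S4 and S3, and in female pistils 1 (0.719%), CpXY17_MSY. Of the 139 features 72 were Y-located, and females carry no Y. Among the 67 X-located features none was called in pistils. These counts do not by themselves show a difference from stamens, which was tested feature by feature. The 8 pistillode calls were CpXY17, CpXY19 (CpXY19a_X and CpXY19_MSY) and CpXY42 copies, PYCpXY5_X and PCpY1_MSY. All 8 were among the 70 called in stamens, with the same sign, where 50.4% of the 139 tested features were called. CpXY17 is a partly shared pair, and CpXY19 and CpXY42 are shared pairs, so their copies repeat reads of each other. PCpY1_MSY changed by -2.68 in stamens and by -2.66 in pistillodes. CpXY17_MSY changed by -1.77 in stamens, -1.13 in pistillodes and -0.97 in pistils, where its counts cannot be of the Y. CpXY17_X did not pass in pistils (-0.56, adjusted p = 0.0747, edgeR). The change of CpXY17_MSY in stamens differed from that in pistils (-0.79, adjusted p = 0.0359, edgeR), a call lost in 9 of the 12 fits that left out 1 library, while the difference from pistillodes did not pass (-0.63, adjusted p = 0.173, edgeR).

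The change in stamens differed from that in pistillodes in 28 features (20.1%), 13 with a higher (9.35%) and 15 with a lower (10.8%) change in stamens. CpXY14_X changed by 3.32 in stamens and by -0.22 (SE 0.21) in pistillodes, which had 151, 144 and 44 counts in S4 and 178 and 151 in S3. The difference of changes was 3.55 (SE 0.28, adjusted p = 1e-13, edgeR). The pistillode library with 44 counts, S4 replicate 3, had the lowest total of the series over these features. That total was 21475 counts, against 52185 and 70930 in S4 pistillode replicates 1 and 2. PXCpXY14_X changed by -2.31 in stamens and by 0.27 (SE 0.18) in pistillodes, a difference of -2.57 (SE 0.25, adjusted p = 3.22e-11, edgeR). CpXY21_X, CpXY6_MSY, PXCpXY14_MSY, PCpX1_X and CpY8_MSY also differed, by -3.09, 1.43, -1.87, -3.50 and -2.19 (adjusted p = 1.14e-05, 0.00126, 0.00154, 5.24e-05 and 0.0111, edgeR). The call of PCpX1_X was lost when only the compared groups were fitted (-3.53, adjusted p = 0.0725, edgeR). That of CpY8_MSY was lost without pistillode S3 replicate 1 or 2 (adjusted p = 0.0514 and 0.0599, edgeR).

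The CpXY40 copies carry a limit in this comparison. Pistillodes had 3, 482 and 58 counts of CpXY40_X in S4 and 239 and 20 in S3, so S4 replicate 2 and S3 replicate 1 stood apart from the rest. The difference of changes was 4.57 for CpXY40_X and 4.54 for CpXY40_MSY (adjusted p = 0.00126 and 0.000601, edgeR). Without S3 replicate 1 it was 1.60 and 1.51 and did not pass (adjusted p = 0.405 and 0.376). When only the compared groups were fitted it was 4.60 and 4.58 and did not pass (adjusted p = 0.196 and 0.157). Without both libraries 20 features differed instead of 28, and CpXY40_X and CpY8_MSY did not pass (3.09 and -2.17, adjusted p = 0.0598 and 0.0738).

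For features with few or no counts in pistillodes a difference of fitted changes has no fixed size, and counts are given instead. CpXY13_X had 1 count over the 3 pistillode libraries of S4 and 0 over the 2 of S3, and CpXY4_MSY 1 and 6. CpXY10_MSY had 0 in S4 and 2 in S3. PYCpXY7_MSY had 20 counts in S4 pistillodes and 2 in S3. In stamens, by contrast, the same features had 4917 (CpXY13_X), 881 (CpXY10_MSY) and 659 (PYCpXY7_MSY) counts over the 3 libraries of S4, and 2194 (CpXY4_MSY) over those of S3.

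Against the functional female organ, the change in stamens differed in 42 features (30.2%), 21 higher and 21 lower (15.1% each), and with table totals in 39, 8 higher and 31 lower. In the main test 12 of the 67 X-located features were higher and 14 lower. Of the 72 Y-located features, whose pistil counts cannot be of the Y, 9 were higher and 7 lower. CpXY14_X changed by 0.32 (SE 0.18) in pistils, with 512, 450 and 353 counts in S4 pistils and 421, 320 and 423 in S3 pistils. The difference from the stamen change was 3.01 (SE 0.26, adjusted p = 2.18e-12, edgeR). CpXY40_X, which had 124, 127 and 78 counts in S4 pistils and 109, 126 and 89 in S3 pistils, differed by 4.997 (adjusted p = 0.000292, edgeR), and CpXY40_MSY by 4.98 (adjusted p = 0.000118, edgeR). CpXY19a_X and CpXY19b_X, which rose by 1.19 and 1.22 in stamens, changed by -0.57 and -0.72 in pistils, differences of 1.76 and 1.95 (adjusted p = 0.00935 and 0.0163, edgeR). With table totals the stamen call of CpXY19b_X and its difference from pistils (1.66, adjusted p = 0.0523) were lost.

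In the other direction CpXY21_X changed by -0.01 (SE 0.31) in pistils and differed by -2.86 (adjusted p = 2.55e-06, edgeR), and PCpX1_X changed by 0.04 (SE 0.43) and differed by -3.38 (adjusted p = 2.52e-05, edgeR). CpXY31_X differed by -3.78 (adjusted p = 0.0278, edgeR), and without S3 stamen replicate 1 by -0.80 (adjusted p = 0.655). Its call was also lost when only the compared groups were fitted (adjusted p = 0.158, edgeR). It was lost too with the replicate block and without copies of shared and partly shared pairs (adjusted p = 0.0539 and 0.0518, edgeR). The same held without S4 stamen replicate 1 or 2, S3 pistil replicate 1 or 2, or S4 pistil replicate 1. Counts at Y copies in female libraries cannot be of the Y, which bears on CpXY40_MSY above and on the following. CpXY15_MSY, a partly shared copy, differed by -2.72 (adjusted p = 9e-07, edgeR), and PXCpXY14_MSY, with 4 counts over the S4 pistils and 0 over the S3 pistils, by -5.20 (adjusted p = 0.018, edgeR), a size that depends on those 4 counts.

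**Figure D5:**
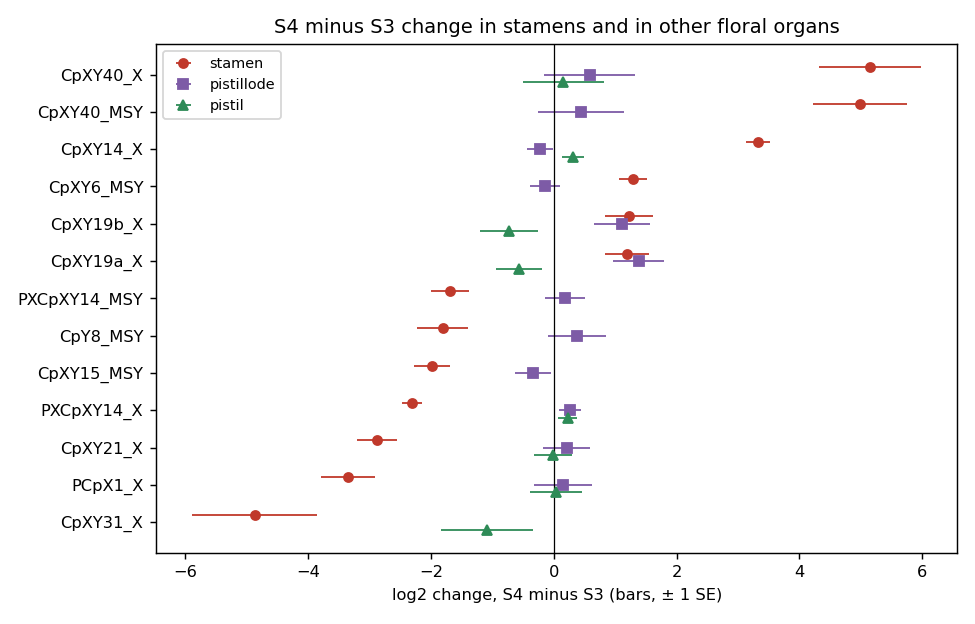
Log2 change, S4 minus S3, with bars of 1 SE, of 13 features named for a difference between organs, in stamens (red circles), pistillodes (violet squares) and female pistils (green triangles). Pistil values of Y copies, and values of organs with under 10 counts per library, are left out. The features were named for a stamen change that differed from that of another organ, so that gap was set by the choice. For most features the points of the other organs lie near 0. CpXY19b_X and CpXY19a_X changed by 1.11 and 1.38 in pistillodes, near their stamen changes of 1.22 and 1.19.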

How the data were processed

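The deposited values are counts of read pairs over exons, summed by feature, and per the file headers the authors made them with featureCounts 2.0.0 on read pairs. Multi-mapping reads were counted at every place they map to, and the headers show no strand option. The submitters' processing notes list HISAT2 2.0.5 and SAMtools 1.3.1, Trimmomatic 0.36 and FastQC 0.11.5, and featureCounts in another version, 1.5.2. The genome build of the coordinates was not given in the sources used here. Without strand, reads of overlapping features on opposite strands cannot be told apart. None of the 193 feature names matched the reference table of 48816 genes, and CpMDAR4, named in the series' design text, was not analysed here.

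Scaling was by TMM (trimmed mean of M-values). Counts were filtered by group with filterByExpr, and fitted with edgeR 4.0.16 (R 4.3.3) by robust quasi-likelihood, in 1 model of all 55 libraries in 19 groups, with a prior count of 0.125. Contrasts were S4 minus S3 in stamens, and its difference from the same change in pistillodes and in pistils. The SE of an edgeR change was derived from its test, as the absolute log2 change over the square root of the F statistic. P-values were two-sided, with Benjamini-Hochberg adjustment and a threshold of 0.05. Y to X ratios were tested with limma 3.58.1 on log2((Y + 0.5)/(X + 0.5)) over the 34 male libraries, in separate pairs with at least 20 counts in each of the 6 libraries. Shares of counts were tested by exact permutation.

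Named features were up to 12 in each direction with the largest change among those called, with a mean of at least 10 counts in the higher group and no overlap of libraries, the 5 with the highest level per exon kilobase, up to 5 in each direction for each difference of changes (mean of at least 10 counts in at least 1 group), and every called ratio. Other copies of named pairs, members of lists, features without a partner, CpXY39, CpXY4_X, the CpXY17 copies, CpX1, PXYCpXY1_X, CpXY41_MSY, CpXY50_X and the pistillode calls were named after their values were seen. The comparison, lists and rules were chosen with earlier results of these data known. Alternatives were other scalings and filters, DESeq2 1.42.0, other sets of libraries, a block for the replicate number, and the removal of each library in turn. The test without the pistillode libraries that stand apart was added after seeing the data. The fits were tested on simulated data, where false calls were a larger share of calls than the threshold allows in all 3 contrasts, and a smaller one among changes above 1 on the log2 scale. Same-numbered S4 and S3 stamen libraries did not deviate together in every case, so the numbers were not taken as pairs. Figures were drawn with matplotlib 3.10.9 in Python 3.11.15.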

Additional observations from a re-analysis of the deposited data

Results flagged for a closer look

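The change between S4 and S3 differed between stamens and pistillodes by a test of the difference itself (edgeR, adjusted over 139 features) for 10 named features, given as log2 differences of changes. It was higher in stamens for CpXY10_MSY (14.41), CpXY40_X (4.57), CpXY40_MSY (4.54), CpXY14_X (3.55) and CpXY6_MSY (1.43). It was lower in stamens for PCpX1_X (-3.50), CpXY21_X (-3.09), PXCpXY14_X (-2.57), CpY8_MSY (-2.19) and PXCpXY14_MSY (-1.87). The value of CpXY10_MSY has no fixed size, since it rests on 2 counts in pistillodes, and its call was lost without the pistillode library that holds them. Both CpXY40 copies and PCpX1_X did not pass when only the compared groups were fitted, and both CpXY40 copies and CpY8_MSY did not pass without pistillode S3 replicate 1.

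The same test against female pistils named CpXY40_X (4.997), CpXY40_MSY (4.98), CpXY14_X (3.01), CpXY19b_X (1.95) and CpXY19a_X (1.76) as higher in stamens. It named PXCpXY14_MSY (-5.20), CpXY31_X (-3.78), PCpX1_X (-3.38), CpXY21_X (-2.86) and CpXY15_MSY (-2.72) as lower in stamens. PXCpXY14_MSY, CpXY15_MSY and CpXY40_MSY are Y copies, whose counts in pistils cannot be of the Y. PXCpXY14_MSY had few such counts and did not pass without pistil S4 replicate 3 (-4.69, adjusted p = 0.0721, edgeR). CpXY31_X did not pass without S3 stamen replicate 1 (-0.80, adjusted p = 0.655, edgeR) and in several other fits. CpXY19b_X did not pass with table totals. With 3 libraries per group, no library was tested for standing apart from its group.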

How the results depend on the processing

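The count of 70 called features was 58 to 68 when each stamen library was left out, 70 with median-of-ratios size factors, 73 with DESeq2, 71 with no filter on low counts and 72 with the replicate block, which kept 70 of the 70 calls. Without copies of shared and partly shared pairs it was 31, since 66 features were tested, 32 of them among the 70. In the same setting the differences from pistillodes were 8, where 10 of the 28 called were still tested, and those from pistils 6, where 12 of the 42 were still tested; the cause of the lost calls was not tested. Without each library the differences from pistillodes were 19 to 33, the lowest without pistillode S3 replicate 1, and those from pistils 32 to 40. The replicate block gave 28 differences from pistillodes, 42 from pistils and 8 ratios. The correlations of deviations of same-numbered S4 and S3 stamens were 0.055, 0.204 and 0.394 for replicates 1, 2 and 3. Those of different numbers ranged from -0.312 to 0.133. S4 replicates 2 and 3 each correlated best with the S3 library of their own number, and S4 replicate 1 with S3 replicate 2. The Y share of counts turned to -0.0266 percentage points in separate pairs alone. CpXY48_X, not called, ranged from -0.18 to 0.083 as each library was left out, with the positive value without S3 replicate 1; the cause was not tested. Calls lost for PXCpXY14_MSY (-4.69), CpXY31_X (-3.12 with the replicate block), CpXY19b_X (1.66 with table totals) and CpY8_MSY concern differences between organs.

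Scaling rests on sex-linked features alone, of which CpXY36 takes a larger part in S4 than in S3, so a shift common to all of them could not be seen. Changes of low features, and ratios of few counts, are limited by the counts behind them, and values of shared copies cannot be assigned to X or Y.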
